A study of Mus musculus with 6 samples.

Results

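The p53 protein, encoded by Trp53 in the mouse, is a transcription factor that halts the cell cycle or starts cell death after DNA damage and other stress. Mdm2 is the ubiquitin ligase that marks p53 for degradation, and Mdm4 is its relative that binds p53 and partners Mdm2. Trp63 and Trp73 encode the p63 and p73 proteins, which share the DNA-binding domain of p53. Both can be made as forms with the transactivation domain or, from a start further downstream, as ΔN forms without it; p63 marks basal epithelial cells and p73 is needed for multiciliated cells of the airway. Trp53bp1 encodes 53BP1, which was found as a p53-binding protein and is best known for binding chromatin at DNA breaks and steering their repair to end joining.

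These 6 genes were chosen by name and followed by transcript in RNA sequencing of 3 lung samples and 3 samples of the KP cell line, so they are 6 of 20687 gene symbols and their 47 transcripts are 47 of 76521 matched transcripts in the table. The lung samples came from C57BL/6 mice given 100000 KP cells in the tail vein and harvested 28 days later, and each pooled the lungs of 3 mice from an independent experiment. The cell line samples are preparations of the KP cells in triplicate, labelled with the same strain, and since the labels do not say whether the cultures were separate, the spread behind the p-values may be technical in that group. The labels give no genotype for the KP cells, so the state of Trp53 in them is not stated. No lung without injected cells was part of the comparison. In bulk lung, the tumour cells and the host's own epithelial, endothelial and immune cells are measured together, and fewer cells of a type and less RNA per cell cannot be told apart.

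The total of estimated counts in a sample ranged between 17786758 and 22862396, and levels are given as CPM, counts scaled to library size after TMM normalization. The CPM of transcripts used the scaling of the gene sums. The fit of transcripts had its own TMM scaling, so its fold changes need not equal those between the CPM means. A count of 0 allowed up to 3 counts, or between 0.12 and 0.173 CPM depending on the sample, for counting error only. Marker genes of alveolar type 2 cells, endothelium and macrophages were called higher in lung in every case, and their summed CPM in the cell line was 0.479%, 0.681% and 1.01% of that in lung. The summed level of 5 T cell markers in the cell line was 9.44% of that in lung, and that of 5 B cell markers was 30.2%. Krt8 and Cdh1, epithelial genes, were abundant in the cell line (996 to 3454 CPM and 416 to 466 CPM), where Epcam stood between 1.92 and 3.00 CPM and Nkx2-1, the lung lineage factor, was at 0. A pair of samples stood apart. Lung replicate 2 had lower values for long transcripts than the other lungs, with a median log2 deviation of -0.99 in the longest quartile of genes and 0.77 in the shortest. Cell line replicate 1 had a summed proliferation marker level of 454.4 CPM, against 2415 and 2481 CPM in the other cell line samples.

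Trp53 was higher in lung. The gene sum was 42.5, 55.4 and 56.7 CPM in lung replicates 1, 2 and 3, against 5.62, 8.73 and 7.37 CPM in the cell line replicates. The lowest lung sample lay well above the highest cell line sample. The mean level of 51.5 ± 7.8 CPM in lung samples and 7.24 ± 1.56 CPM in KP cells (SD, n = 3 each) gave a log2 fold change of 2.83 (SE 0.28, lung minus cell line, adjusted p = 0.000118, quasi-likelihood test of edgeR with Benjamini-Hochberg adjustment over all genes). The same test called 4758 of 15212 genes (31.3%) higher in lung and 2664 (17.5%) lower at adjusted p below 0.05, so a call in either direction was made for 48.8% of all genes. With library size alone as the scaling the split was 5210 higher and 1728 lower. Of the 6 genes, 5 passed the filter on low counts, and 2 were called higher in lung, 1 lower and 2 not at all. The Trp53 level in the cell line was 14.1% of that in lung, a share that stood between those of the T cell and B cell markers, and the part of blood cell RNA in it was not tested. The cell line samples held 120, 152 and 140 estimated Trp53 counts, so transcripts of the gene were present there. The table gives counts per whole transcript and none along the gene, so these counts are no check of whether exons are deleted in the line.

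**Figure D1:**
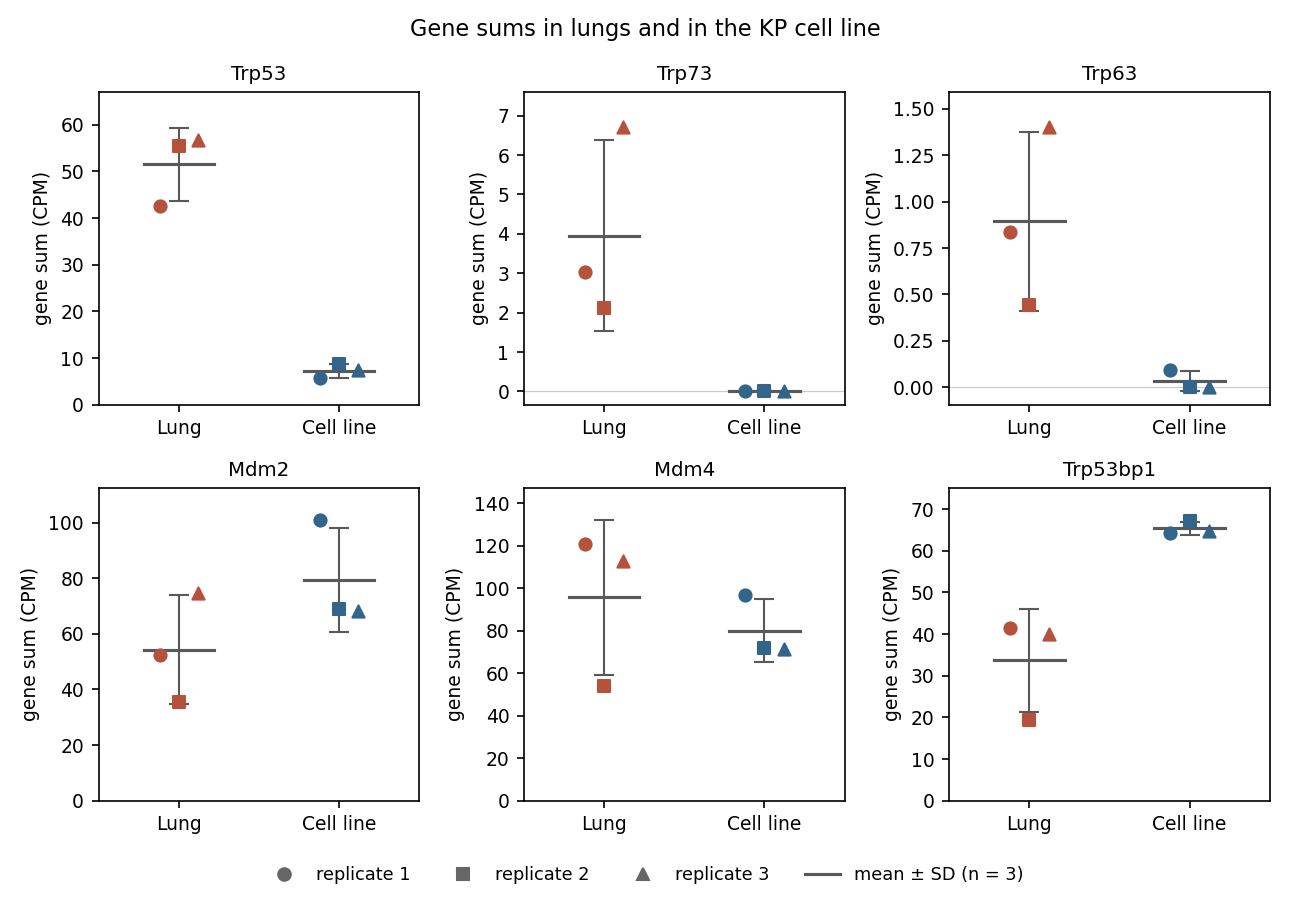
Gene sums in CPM on scaled library sizes for Trp53, Trp73, Trp63, Mdm2, Mdm4 and Trp53bp1, with lung on the left and cell line on the right of each panel; points are samples, marked by replicate, and lines are the mean ± SD of 3 samples. Trp53, Trp73 and Trp63 were higher in all 3 lung samples, the Mdm2 and Mdm4 samples overlapped, and Trp53bp1 was lower in all 3 lung samples (19.4 to 41.5 CPM, against 64.3 to 67.1 CPM).

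The 6 Trp53 transcripts in the table fall into splice forms by how exon 11, the last exon, begins. In Trp53-203 and Trp53-201, which differ by 1 base at the 3′ end, exon 10 joins the usual start of exon 11 (capitals, chr11:69591350-69591364, plus strand, GRCm38). In Trp53-202 and Trp53-206 exon 11 starts 96 bases earlier and brings a new reading frame of 55 bases up to and including a stop codon (capitals, chr11:69591254-69591308, plus strand, GRCm38), so the usual C-terminal tail of p53 is replaced. This form is known in the mouse as alternatively spliced p53. The sequences are shown because this junction is the difference between the major Trp53 transcripts; exon 10 is in lower case, and both come from the GENCODE transcripts.
Usual exon 11: cagggctcactccagCTACCTGAAGACCAA
Longer exon 11: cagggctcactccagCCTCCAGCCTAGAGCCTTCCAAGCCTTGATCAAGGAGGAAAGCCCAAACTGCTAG

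Trp53-203, which encodes the usual protein, carried most of the sum. It stood at 32.5, 35.6 and 43.9 CPM in lung samples and 4.10, 4.77 and 4.03 CPM in KP cells, a log2 fold change of 3.03 (SE 0.27, adjusted p = 0.00131 over all transcripts). Over the 36301 transcripts tested, 6955 (19.2%) were called higher in lung and 5072 (14.0%) lower (33.1% in either direction), and 7933 and 3261 with library size alone. Of the 47 transcripts of the 6 genes, 22 passed the filter on low counts, 4 of them called higher in lung and 6 lower. Its near twin Trp53-201 had 12.4 CPM in lung replicate 2 and 0 in the other 5 samples. Since Trp53-201 and Trp53-203 differ by a single terminal base, the split of counts between them is uncertain, and their sum is the safer value. Together they averaged 41.5 ± 8.0 CPM in lung samples and 4.30 ± 0.41 CPM in KP cells (SD, n = 3 each), 9.65 times higher in lung.

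The transcripts with the longer exon 11 divided by sample type. Trp53-202 stood at 7.09, 6.15 and 7.55 CPM in lung samples and at 0 in all 3 cell line samples, which makes it at least 133.5-fold higher in lung against 3 counts over the group (edgeR adjusted p = 0.00265). Trp53-206 was the reverse, at 0 in all 3 lung samples and at 1.37, 3.97 and 3.16 CPM in the KP cells, and thus lower in lung by at least 63.1-fold (edgeR adjusted p = 0.00616). Trp53-206 is Trp53-202 with 46 more bases at the 5′ end and 1 base fewer at the 3′ end, so these end bases alone tell the pair apart. The split of counts between them is therefore uncertain, and their sum is the safer value. Both fold bounds cover counting error only and not this split. Summed, the pair averaged 6.93 ± 0.71 CPM in lung samples and 2.83 ± 1.33 CPM in KP cells (SD, n = 3 each), 2.45 times higher in lung and thus a smaller excess than the usual form had.

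As a share of the gene, the longer exon 11 made up 16.7%, 11.1% and 13.3% of Trp53 counts in lung replicates 1 to 3, against 24.3%, 45.4% and 43.0% in the cell line. The groups did not overlap, with a mean difference of -23.9 percentage points (two-sided exact permutation p = 0.1, not adjusted, the smallest p that 3 against 3 samples can give). In the cell line these shares rest on few counts. The 95% exact binomial interval of the share ran between 16.8% and 32.8% in cell line replicate 1. In replicate 2 it ran between 37.3% and 53.7%, and both intervals cover counting error only. The usual exon 11 made up 76.6%, 86.7% and 77.5% in lung and 72.9%, 54.6% and 54.8% in the cell line (two-sided exact permutation p = 0.1, not adjusted). Shares of single transcripts gave adjusted exact permutation p-values of 0.3 or more over the 6 transcripts.

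Trp53-205 and Trp53-204 are annotated without a coding sequence. Trp53-205, a long transcript of 5 exons, stood at 2.81, 1.23 and 5.20 CPM in lung samples and at 0.16, 0 and 0.17 CPM in KP cells. Its log2 fold change was 4.69 (SE 1.05, edgeR adjusted p = 0.0162), and the call was lost without lung replicate 1 (adjusted p = 0.0532), lung replicate 3 (0.0595) or cell line replicate 3 (0.0568). Trp53-204 had 0.07 CPM in lung replicate 1 and 0 in the other 5 samples.

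**Figure D2:**
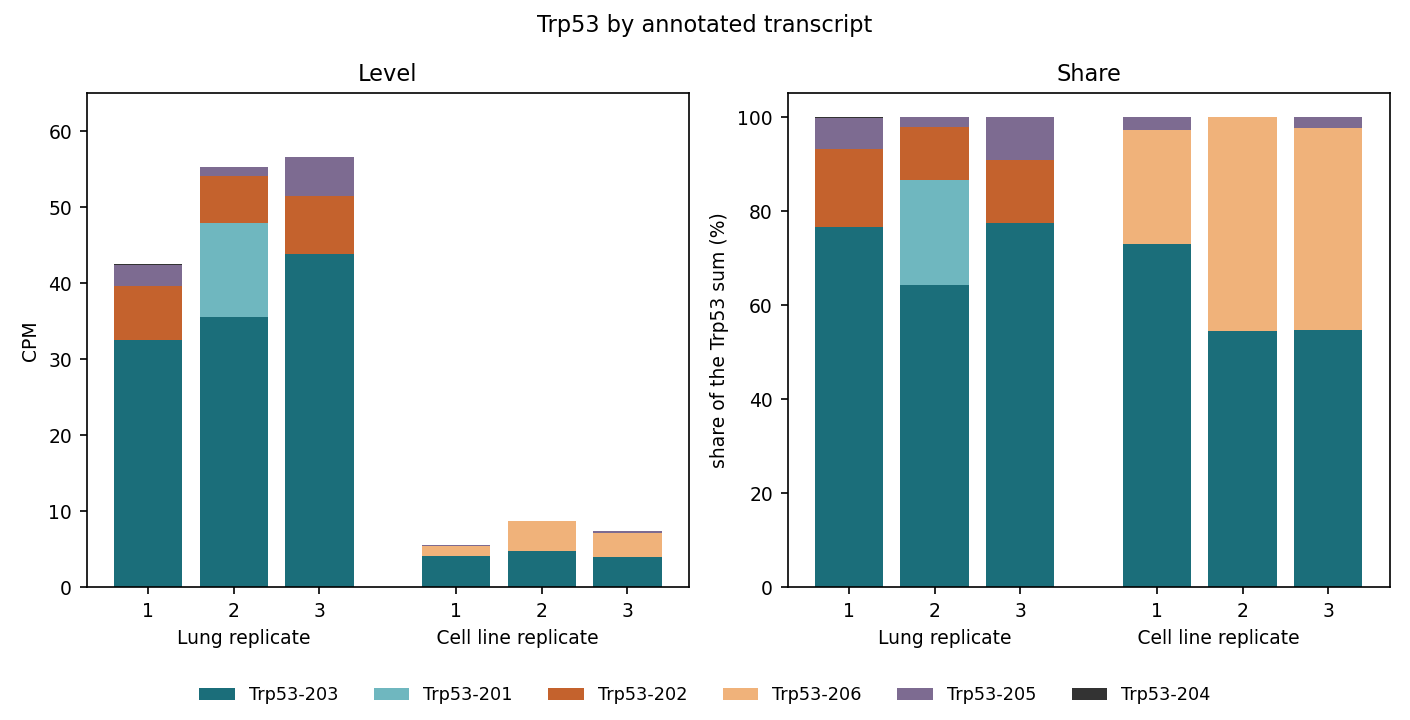
Trp53 by annotated transcript in each sample, lung replicates left and cell line replicates right; stacked bars give the level in CPM (left panel) and the share of the Trp53 sum in percent (right panel). Trp53-203 leads in every sample. Trp53-202 is seen in lung samples and Trp53-206 in cell line samples, but the split of counts between them is uncertain. The longer exon 11 (both together) reaches 45.4% in cell line replicate 2, against at most 16.7% in a lung sample.

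The other family members were detected almost wholly in lung. Trp73 stood at 3.04, 2.12 and 6.70 CPM in lung samples and at 0 in all 3 cell line samples. It was at least 76.1-fold higher in lung against 3 counts over the group (edgeR adjusted p = 0.000955). Nearly all of these counts (95.2%, 100% and 96.9% in lung replicates 1 to 3) fell on Trp73-205, a transcript annotated with the downstream ΔN start, at 2.89, 2.12 and 6.49 CPM; the other transcript, Trp73-206, stood between 0 and 0.21 CPM in lung. Trp63 was near the floor, at 0.84, 0.44 and 1.4 CPM in lung samples and 0.09, 0 and 0 CPM in KP cells, and did not pass the filter on low counts. Its 58 counts over the lung samples and 2 over the cell line samples gave a ratio of 25.1. The 95% exact Poisson interval of 6.63 to 212 covers counting error only and not the spread between samples. All 3 Trp63 transcripts in the table start at the ΔN exon. Trp63-201 held the whole sum in lung replicate 1, and Trp63-205 held the whole sum in lung replicate 2 and 83.9% of it in replicate 3, where Trp63-204 held the rest. Trp63-201 (4703 bases, 1758 of them coding) and Trp63-205 (4691 bases, 1746 coding) both have 12 exons and are close in length. They had 10 to 23 counts in those samples, so the choice between them is not settled at this depth.

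Markers of the cells known for these factors are given beside them. Of 15 genes of multiciliated cells, 13 were tested and 12 rose in lung (92.3%, against 31.3% of all genes). Their summed level was 256, 321 and 344 CPM in lung samples and 16.9, 17.3 and 17.6 CPM in KP cells, with 6 of the 15 at 0 there. Foxj1, the master regulator of motile cilia, stood at 37.1, 26.9 and 55.2 CPM in lung samples and at 0.79, 1.44 and 1.26 CPM in KP cells. Of 9 basal cell markers, 5 were tested and 2 rose (40.0%, near the 31.3% of all genes). The summed level was 7.51, 7.69 and 15.8 CPM in lung samples and 3.59, 5.01 and 5.43 CPM in KP cells. The basal markers that rose were Ngfr, with means of 1.91 CPM in lung samples and 0.33 CPM in KP cells, and Col17a1, with 3.91 and 0.26 CPM. Their log2 fold changes were 2.52 and 3.89 (edgeR adjusted p = 0.00229 and 0.000813), and the other 3 tested were not called. Of the basal keratins, Krt5 stood at 0, 0.09 and 0.68 CPM in lung samples and at 0 in KP cells. Krt14 stood at 0.88, 1.24 and 1.45 CPM in lung samples and 1.63, 3.28 and 3.69 CPM in KP cells (edgeR adjusted p = 0.0527). Krt15 and Krt17, not tested, averaged 0.75 and 0.09 CPM in lung samples and 0.20 and 0 CPM in KP cells. Both Trp73 and Trp63 were highest in lung replicate 3, as were the summed markers of both cell types. The order of lung replicates 1 and 2 differed: both genes were lower in replicate 2, and both marker sums were higher there. The part of these cells in the levels was not tested.

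Mdm2 was not called. The gene sum was 52.3, 35.6 and 74.7 CPM in lung samples and 101, 68.8 and 68.4 CPM in KP cells. Lung replicate 3 lay above cell line replicates 2 and 3, so the groups overlapped, and the log2 fold change was -0.55 (SE 0.33, edgeR adjusted p = 0.199). By transcript, the picture was uneven. Mdm2-201, which encodes the full protein, stood at 29.1, 28.9 and 52.3 CPM in lung samples and at 93.9, 65.1 and 63.4 CPM in KP cells, without overlap. Its log2 fold change of -1.13 (SE 0.32) had an edgeR adjusted p of 0.0354, but the call rests on the settings: it was lost under DESeq2 size factors (0.0718) and library size alone (0.131), and without cell line replicates 1, 2 or 3 (0.0681, 0.0627 and 0.0628) or lung replicates 1 or 2 (0.126 each).

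Mdm2 is known to have an upstream promoter and a second promoter that p53 itself activates, and the transcripts differ in where they start. Mdm2-209 starts at the second exon, lacks an internal exon and is annotated as a target of nonsense-mediated decay. It stood at 11.9, 4.71 and 9.95 CPM in lung samples and at 0.81, 0 and 0 CPM in KP cells, with no overlap. It missed the threshold with TMM scaling (edgeR log2 fold change 4.83 with an SE of 1.55, adjusted p = 0.0538). It was called higher by edgeR under DESeq2 size factors (adjusted p = 0.0496) and library size alone (0.0455), and by the DESeq2 Wald test (0.00211). The edgeR test did not call it with no filter on low counts (0.0776) or with the replicate number as a block (0.0649). Without cell line replicate 1, the only cell line sample with counts, the fitted log2 fold change was 10.45 against a group at 0, which is no bound (adjusted p = 0.00764). Without any other single sample the adjusted p was 0.0749 to 0.138. Mdm2-206, a short non-coding transcript named here after its values were seen, went the other way, at 0, 0 and 0.15 CPM in lung samples and 2.73, 1.67 and 0.83 CPM in KP cells (edgeR adjusted p = 0.0242). The call was lost without any 1 sample other than lung replicate 3, with adjusted p up to 0.0829. Summed over the 3 transcripts that start at or just before the second exon, the share of Mdm2 counts was 23.5%, 13.4% and 14.0% in lung and 4.61%, 2.42% and 2.08% in the cell line. Transcripts that start in the upstream exon held 69.6%, 85.6% and 81.0% in lung and 94.8%, 95.7% and 96.9% in the cell line. These shares follow annotated transcript starts and not measured start sites. The other 7 Mdm2 transcripts each held under 10% of the sum in the mean of either group.

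Mdm4 was not called either. The gene sum was 121, 53.8 and 113 CPM in lung samples and 97.0, 71.8 and 71.3 CPM in KP cells, with a log2 fold change of 0.26 (SE 0.34, adjusted p = 0.559). Lung replicate 2, the sample with low values for long transcripts, was the low one, 1.11 below the other lungs on the log2 scale, and Mdm4 is among the longest quartile of genes. Without it the log2 fold change was 0.49 (adjusted p = 0.0639), and over all single samples left out it was 0.06 to 0.49. With that sample and cell line replicate 1 both left out, a setting chosen after seeing the data, the log2 fold change was 0.70 (edgeR adjusted p = 0.000495). Mdm4-210, the full-length coding transcript, held 95.2%, 95.0% and 96.4% of the sum in lung and 84.8%, 88.1% and 85.8% in the cell line, without overlap. Its level was 115, 51.1 and 109 CPM in lung samples and 82.3, 63.3 and 61.2 CPM in KP cells (edgeR log2 fold change 0.28 with an SE of 0.32, adjusted p = 0.534).

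Part of the remainder in the cell line was Mdm4-214, named here after its values were seen. It lacks exon 6 of 11, a stretch of 68 bases that shifts the reading frame when left out, and is annotated as a target of nonsense-mediated decay; a short form without these bases has been described as Mdm4-S. Mdm4-214 stood at 1.14, 0.23 and 0.39 CPM in lung samples and at 11.8, 5.33 and 5.20 CPM in KP cells (edgeR log2 fold change -3.76 with an SE of 0.78, adjusted p = 0.0124, 0.054 without lung replicate 3). Its share of the Mdm4 sum was 0.94%, 0.44% and 0.35% in lung and 12.2%, 7.43% and 7.29% in the cell line. The exon is at chr1:133004654-133004721 on the minus strand of GRCm38 and is shown in capitals between its neighbours, with the junction formed when it is skipped, because that junction is the difference between the transcripts. The other 12 Mdm4 transcripts, Mdm4-214 among them, each held under 10% of the sum in the mean of either group.
Mdm4 with the exon: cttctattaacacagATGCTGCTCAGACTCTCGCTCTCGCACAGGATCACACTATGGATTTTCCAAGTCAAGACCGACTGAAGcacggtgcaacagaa
Mdm4 without the exon: cttctattaacacagcacggtgcaacagaa

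Trp53bp1 was lower in lung, by a small margin in the test. The gene sum was 41.5, 19.4 and 40.1 CPM in lung samples and 64.3, 67.1 and 64.7 CPM in KP cells. All 3 lung samples lay below the cell line samples, and the log2 fold change was -0.96 (SE 0.32, edgeR adjusted p = 0.0373). The call was lost with library size alone (adjusted p = 0.107), without lung replicate 1 (0.0513) and without any 1 of the cell line replicates (0.0647 to 0.0779). Lung replicate 2 again stood 1.07 below the other lungs on the log2 scale; without it the log2 fold change was -0.74 and the call held.

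The lower sum was not shared by all Trp53bp1 transcripts. Trp53bp1-202, the full-length coding transcript of 28 exons, stood at 25.1, 10.3 and 24 CPM in lung samples and at 23.4, 6.40 and 24.2 CPM in KP cells, and was not called (edgeR log2 fold change 0.00 with an SE of 0.57, adjusted p = 0.999). Its low value in cell line replicate 2 coincided with 15.3 CPM of Trp53bp1-201 there, a transcript named here after its values were seen and at 0.89 and 0 CPM in the other cell line samples, so the split between these coding transcripts varied within the group. It is 1 of 11 Trp53bp1 transcripts that each held under 10% of the sum in the mean of either group. Trp53bp1-216, annotated as a target of nonsense-mediated decay, stood at 13.1, 8.59 and 13.1 CPM in lung samples and at 24, 25.0 and 24 CPM in KP cells (edgeR log2 fold change -1.17 with an SE of 0.26, adjusted p = 0.0151, lost with library size alone at 0.0737 and without lung replicates 1 or 3 or cell line replicates 2 or 3 at 0.0502 to 0.0527).

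Trp53bp1-208 was listed at 0 in all 3 lung samples and at 15.2, 15.8 and 13.8 CPM in the cell line. With 862 counts over the cell line samples, it was at least 333-fold lower in lung against 3 counts over the group (edgeR adjusted p = 0.0015), and it made up 23.6%, 23.5% and 21.3% of the cell line sum. This transcript lacks exon 13 of the 28 exons of Trp53bp1-202, an exon of 120 bases that keeps the reading frame when left out, and its annotated model has 16 exons. The table holds no junction counts, so how many reads crossed the skipped exon is not known. The exon is at chr2:121228588-121228707 on the minus strand of GRCm38 and is shown in capitals because it is what sets this cell line transcript apart inside the shared region.
Trp53bp1 with the exon: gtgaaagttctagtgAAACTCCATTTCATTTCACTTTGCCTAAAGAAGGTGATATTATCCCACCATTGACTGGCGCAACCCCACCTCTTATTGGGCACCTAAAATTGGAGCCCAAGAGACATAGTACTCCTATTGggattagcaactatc
Trp53bp1 without the exon: gtgaaagttctagtgggattagcaactatc

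**Figure D3:**
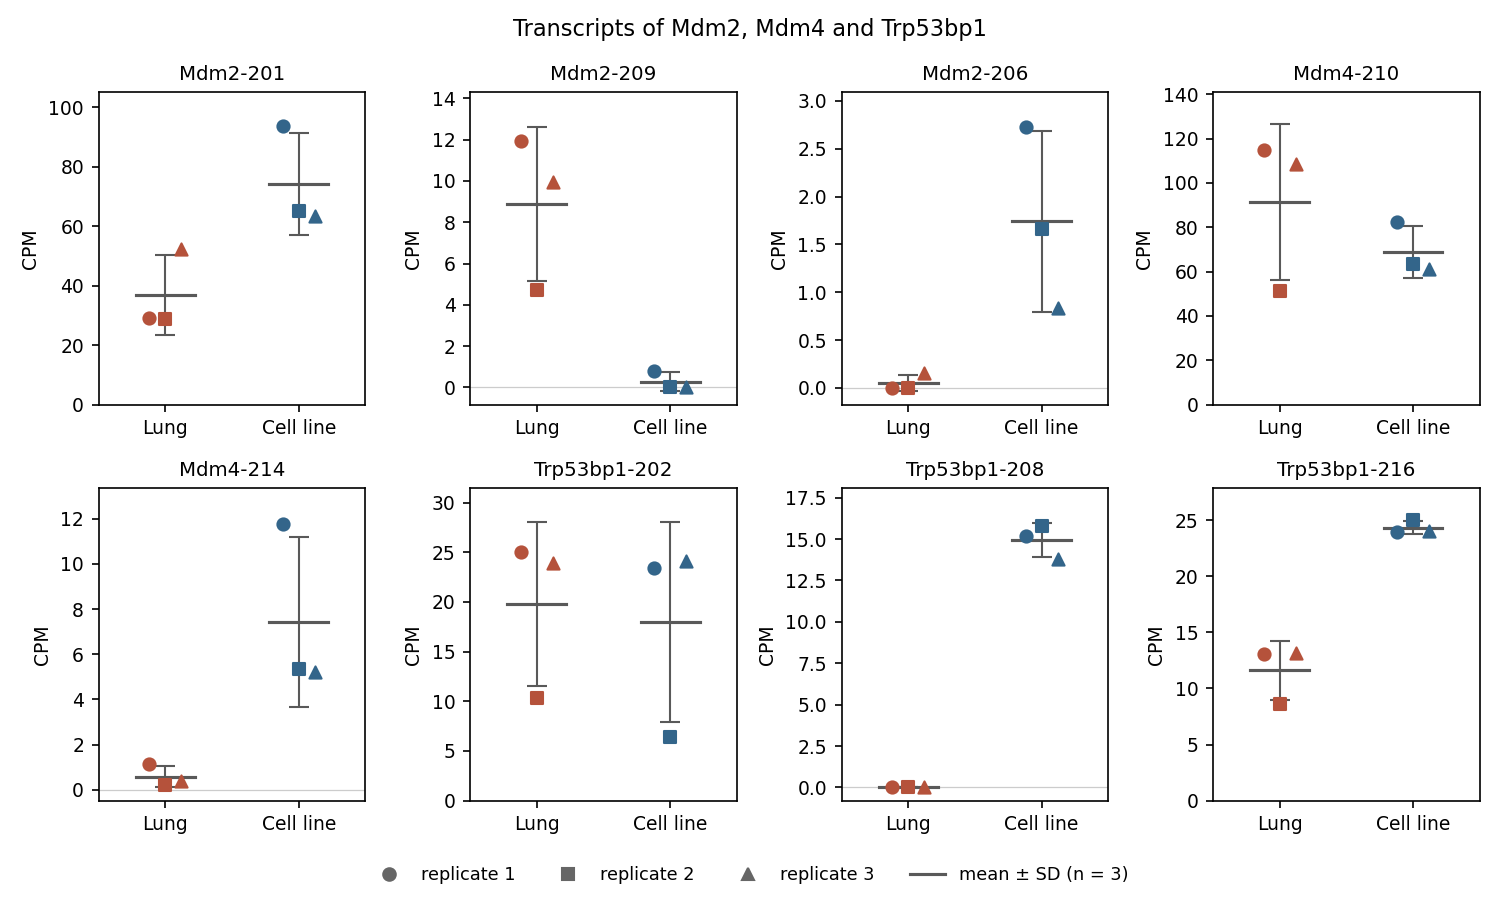
Levels in CPM of 3 Mdm2, 2 Mdm4 and 3 Trp53bp1 transcripts, with lung on the left and cell line on the right of each panel; points are samples, marked by replicate, and lines are the mean ± SD of 3 samples. Mdm2-209 lies higher in lung without overlap but was not called by edgeR with TMM scaling. Mdm2-206, Mdm4-214, Trp53bp1-208 (0 in lung, 13.8 to 15.8 CPM in the cell line) and Trp53bp1-216 are lower in lung. The full-length Mdm4-210 and Trp53bp1-202 overlap.

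Ratios between the genes within a sample do not depend on the scaling between samples. There were 1.23, 0.643 and 1.3 Mdm2 counts for each Trp53 count in lung replicates 1 to 3, against 17.9, 7.88 and 9.28 in the cell line. Lung replicate 2, the sample with low values for long transcripts, deviated from the other lungs by -0.81 for Mdm2 and 0.17 for Trp53 (log2 scale). The part of transcript length in its low ratio was not tested. The difference in log2 ratio was -3.43 (two-sided exact permutation p = 0.1, the smallest possible), and it was -3.40 per kilobase of transcript. The ratio of Mdm4 to Mdm2 counts was 2.31, 1.51 and 1.51 in lung and 0.963, 1.04 and 1.04 in the cell line, a difference in log2 ratio of 0.78 (two-sided exact permutation p = 0.1, and 0.1 for both ratios after adjustment), with no overlap in either ratio. On the level per kilobase of transcript, the order in lung was Trp53 at 28.2 ± 4.3, Mdm2 at 21.0 ± 8.0, Mdm4 at 17.0 ± 6.7, Trp53bp1 at 6.79 ± 2.82, Trp73 at 1.0 ± 0.64 and Trp63 at 0.22 ± 0.15 CPM per kilobase (SD, n = 3), where the samples of Mdm2 overlapped with those of Trp53 and of Mdm4. In the cell line the order was Mdm2 at 30.1 ± 7.8, Trp53bp1 at 16.0 ± 1.8, Mdm4 at 15.2 ± 2.2 and Trp53 at 3.98 ± 0.86 CPM per kilobase (SD, n = 3), where Trp53bp1 and Mdm4 overlapped, with Trp63 at 0.01 and Trp73 at 0.

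**Figure D4:**
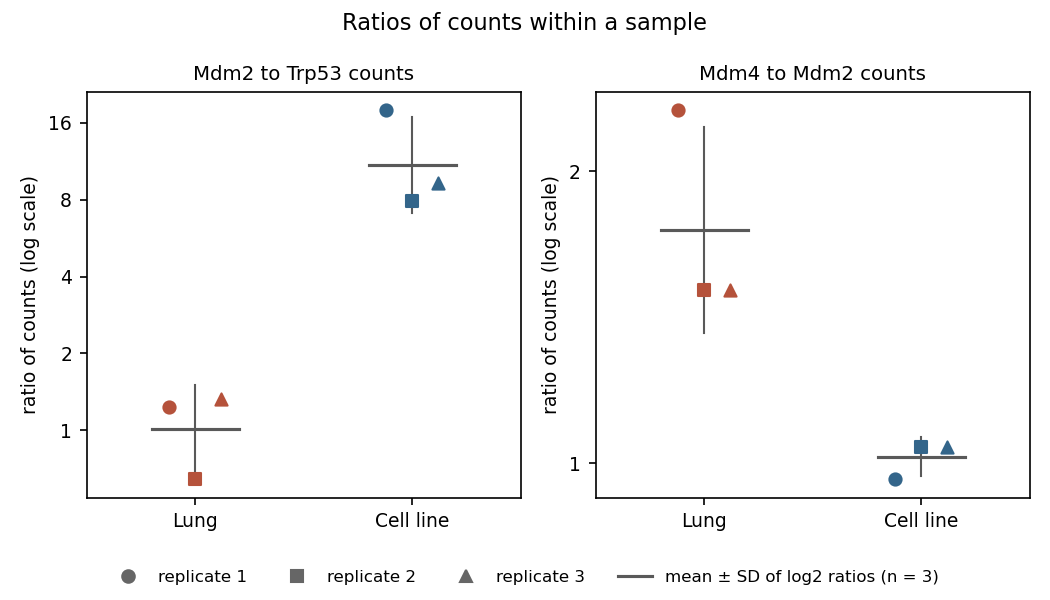
Ratio of Mdm2 to Trp53 counts and of Mdm4 to Mdm2 counts in each sample on a log axis, lung on the left and cell line on the right of each panel; points are samples, marked by replicate, and lines are the mean ± SD of the log2 ratios of 3 samples. The Mdm2 to Trp53 ratio is 0.643 to 1.3 in lung and 7.88 to 17.9 in the cell line.

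Of 35 established p53 target genes, 34 were in the table and tested; 12 rose in lung, 3 fell and 19 were not called, with a median log2 fold change of 0.19, against 0.08 over all genes tested. The share that rose, 35.3%, was near the 31.3% of all genes, and the share that fell was 8.82%, against 17.5% of all genes. Cdkn1a, the cell cycle inhibitor p21 and the best known p53 target, stood at 65.2, 62.9 and 80.8 CPM in lung samples and at 24.6, 11.3 and 14.3 CPM in KP cells (edgeR log2 fold change 2.05 with an SE of 0.34, adjusted p = 0.00139). It was detected in every cell line sample. The detoxifying epoxide hydrolase Ephx1 rose most among the targets named by level, with 89.5 ± 18.6 CPM in lung samples and 7.57 ± 4.16 CPM in KP cells (SD, n = 3 each; log2 fold change 3.56). Phlda3, an inhibitor of Akt signalling, averaged 39.1 ± 11.6 and 13.2 ± 1.0 CPM in lung and cell line, and Btg2, an antiproliferative gene, 132 ± 24 and 57.9 ± 16.7 CPM (SD, n = 3 each).

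Targets that were lower in lung included the death receptor Tnfrsf10b, at 22.8, 15.1 and 19.2 CPM in lung samples and 69.1, 74.0 and 70.9 CPM in KP cells (edgeR log2 fold change -1.91 with an SE of 0.25, adjusted p = 0.000422). Tigar, a regulator of glycolysis, averaged 15.1 ± 2.0 CPM in lung samples and 31.1 ± 2.8 CPM in KP cells (SD, n = 3 each; log2 fold change -1.04, edgeR adjusted p = 0.00704). Several classical targets were not called. Ccng1 averaged 110 ± 14 CPM in lung samples and 93.3 ± 5.3 CPM in KP cells (SD, n = 3 each; edgeR adjusted p = 0.417). The pro-apoptotic Bax stood at 48.9, 92.1 and 40.5 CPM in lung samples and 121, 86.2 and 81.7 CPM in KP cells (edgeR adjusted p = 0.153, 0.00722 without lung replicate 2). Bbc3, which encodes Puma, stood at 11.8, 14.9 and 9.93 CPM in lung samples and 34.8, 9.97 and 11.4 CPM in KP cells, where replicate 1 alone was high (log2 fold change -0.62, and 0.18 without it). Zmat3, an RNA-binding protein, averaged 23.1 ± 9.1 CPM in lung samples and 41.6 ± 4.7 CPM in KP cells (SD, n = 3 each; edgeR adjusted p = 0.0555). It was called lower by the DESeq2 Wald test (0.0312), by limma-voom (0.0381), with no filter on low counts (0.0456) and without lung replicate 3 (0.0142).

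In 32851 RefSeq promoter windows of 300 bases (GRCm38.p6), 29 (0.0883%) held a match to the 20-base p53 consensus, a pair of identical decamers, with at most 1 mismatch and no spacer. Since the motif is its own reverse complement, 1 search covers both strands. Among the windows of the target list, 3 of 35 (8.57%, 26 genes matched) held it, those of Ccng1, Gtse1 and Cdkn1a. Among the windows of the 6 genes 0 of 7 did (5 genes matched). The region of the second Mdm2 promoter could not be read here, so this search does not show whether it holds a match. The Cdkn1a window is that of its upstream start, chr17:29090729-29091028 on the plus strand, with the match in capitals, and is printed because Cdkn1a is the target called here whose window holds it. A match is a description of letters and not a bound site.
Cdkn1a upstream start: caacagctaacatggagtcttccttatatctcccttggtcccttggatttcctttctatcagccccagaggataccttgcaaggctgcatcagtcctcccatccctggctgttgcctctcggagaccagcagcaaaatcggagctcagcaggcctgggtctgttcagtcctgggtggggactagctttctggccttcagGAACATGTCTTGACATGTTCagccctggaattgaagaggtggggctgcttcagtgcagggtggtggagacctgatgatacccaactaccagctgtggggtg

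Of 34 regulators of p53, all tested, 1 rose in lung (2.94%, against 31.3% of all genes), 14 fell and 19 were not called. The median log2 fold change was -0.68, and the number that fell moved between 10 and 20 when single samples were left out. The share that fell was 41.2%, against 17.5% of all genes, and summed proliferation markers were 739, 596 and 541 CPM in lung samples and 454, 2415 and 2481 CPM in KP cells, whose part in these levels was not tested. Cdkn2a, which encodes the Mdm2 inhibitor Arf and the cell cycle inhibitor p16, stood at 67.3, 143 and 36.6 CPM in lung samples and 237, 250 and 246 CPM in KP cells (edgeR log2 fold change -1.57 with an SE of 0.46, adjusted p = 0.0224, lost without lung replicate 1 at 0.0752 and cell line replicate 1 at 0.0505). Huwe1, a ubiquitin ligase that acts on p53, averaged 210 ± 79 CPM in lung samples and 701 ± 90 CPM in KP cells (SD, n = 3 each; log2 fold change -1.74). Kmt5a, the histone and p53 methyltransferase, stood at 68.0, 68.8 and 77.0 CPM in lung samples and 233, 277 and 278 CPM in KP cells (log2 fold change -1.88). Trim28, a corepressor that works with Mdm2, averaged 142 ± 2 CPM in lung samples and 467 ± 127 CPM in KP cells (SD, n = 3 each; log2 fold change -1.71). Ppp1r13b, whose product ASPP1 steers p53 to its apoptotic targets, was the one that rose, with 42.2 ± 13.7 CPM in lung samples and 15.8 ± 4.0 CPM in KP cells (SD, n = 3 each; log2 fold change 1.42). Usp7, the deubiquitinase of p53 and Mdm2, and Ppm1d, the phosphatase Wip1, were not called (edgeR adjusted p = 0.146 and 0.115).

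Of 19 genes of the 53BP1 pathway, 17 were tested; 1 rose in lung (5.88%, against 31.3% of all genes), 5 fell (29.4%, against 17.5%) and 11 were not called, with a median log2 fold change of -0.80. The number that fell moved between 1 and 9 when single samples were left out, and with library size alone 2 rose and 2 fell. Rif1, the effector that binds phosphorylated 53BP1, stood at 44.1, 19.3 and 37.5 CPM in lung samples and 114, 118 and 126 CPM in KP cells (edgeR log2 fold change -1.83 with an SE of 0.33, adjusted p = 0.00234). Topbp1, which binds 53BP1 and activates the kinase Atr, stood at 88.8, 47.3 and 72.1 CPM in lung samples and 87.7, 253 and 251 CPM in KP cells, and its groups overlapped through cell line replicate 1, the sample with low proliferation markers. Brca1, which counters 53BP1 at breaks, had the same low replicate 1, with 21.9, 10.7 and 16.5 CPM in lung samples and 16.0, 65 and 72.1 CPM in KP cells. Their edgeR adjusted p-values of 0.0228 and 0.0373 reached 0.0651 and 0.104 when single samples were left out. Rnf8, the ubiquitin ligase upstream of 53BP1, averaged 21.3 ± 2.7 CPM in lung samples and 36.1 ± 1.9 CPM in KP cells (SD, n = 3 each; edgeR adjusted p = 0.0236, up to 0.104 when a single sample was left out). Shld1, a shieldin subunit that acts downstream of 53BP1, rose, at 5.03, 9.46 and 5.41 CPM in lung samples and 2.10, 2.07 and 2.37 CPM in KP cells (log2 fold change 1.6, edgeR adjusted p = 0.00829).

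**Figure D5:**
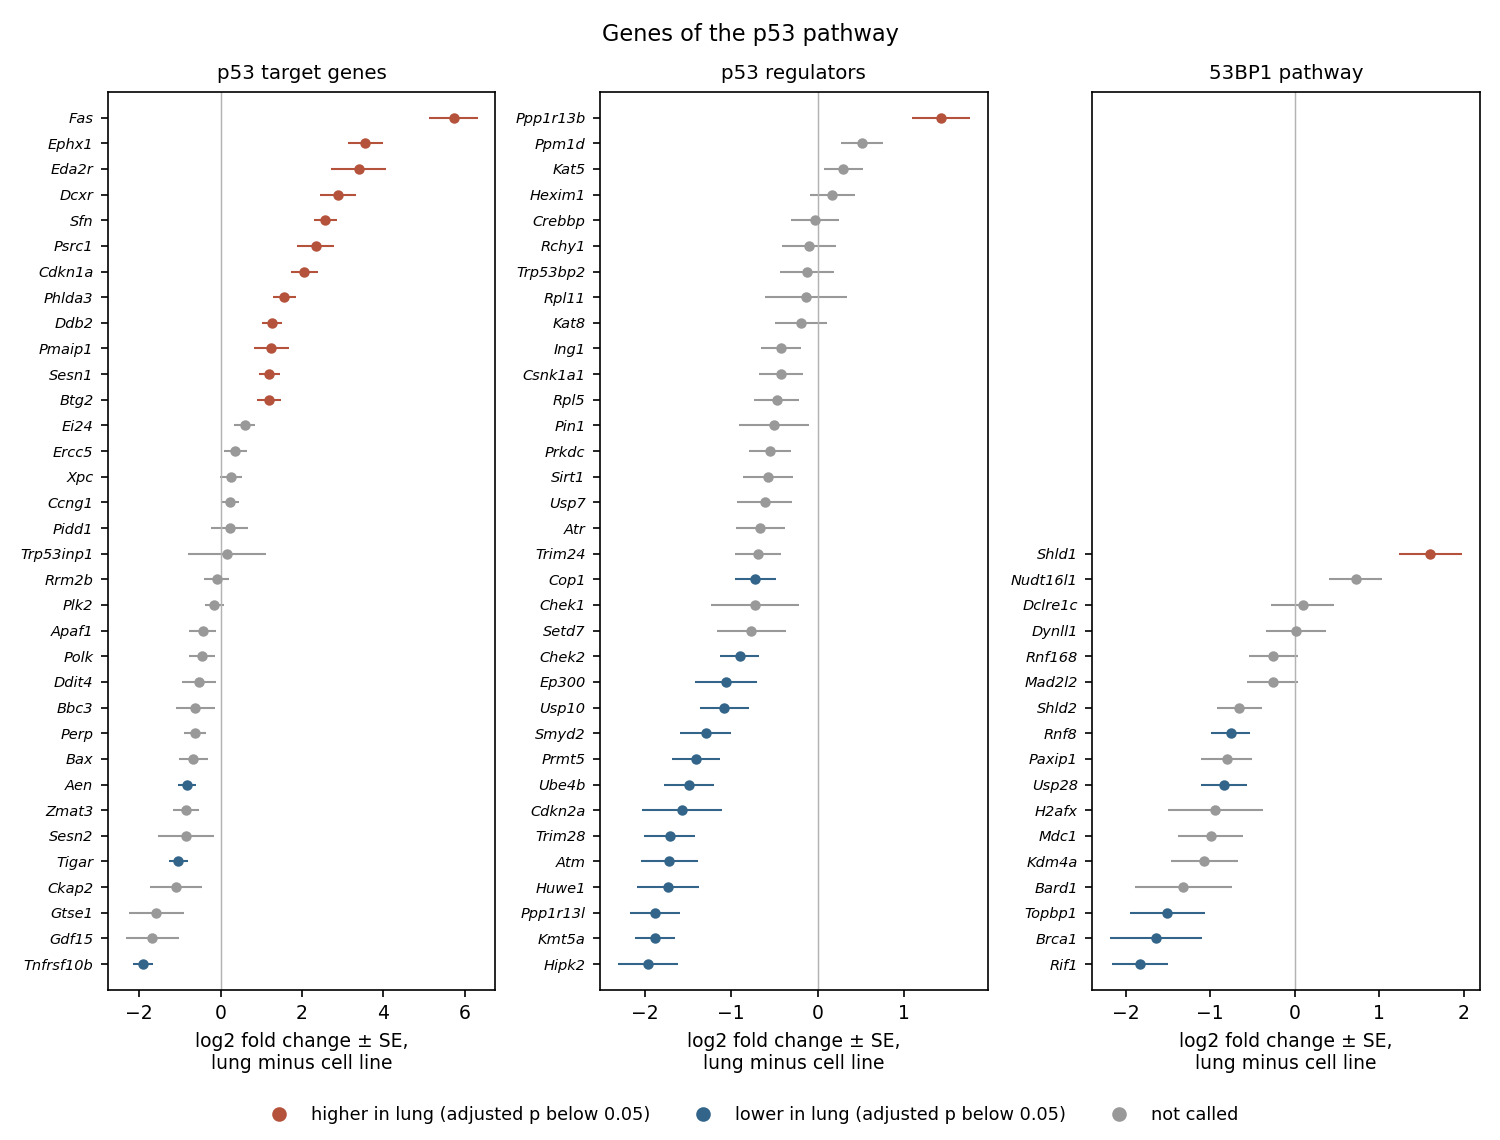
Log2 fold change (lung minus cell line) with its SE for the tested genes of the 3 lists, sorted by size; red points were called higher in lung, blue points lower and grey points were not called at adjusted p below 0.05. Of the target genes 12 (35.3%) were called higher and 3 (8.82%) lower. Of 34 regulators 14 (41.2%) were called lower, and of 17 genes of the 53BP1 pathway 5 (29.4%). Over all genes tested, 31.3% were called higher and 17.5% lower. The number for the 53BP1 pathway moved between 1 and 9 when single samples were left out.

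Over the 6 samples, the genes whose log2 CPM followed each member most closely were found by Pearson's r, as a description in which the difference between the groups carries most of the likeness. For Trp53 these were Siglece, Tcea2 and Mapk13 (r = 0.999 each), with means of 10.9, 5.06 and 16.5 CPM in lung samples and 0.83, 2.31 and 0.92 CPM in KP cells. For Mdm2 they were Sbf2, Pramef8 and Ncoa3 (r = 0.992, 0.991 and 0.989). For Mdm4 they were Ogt, Ephb4 and Ubn1 (r = 0.996 each), and for Trp53bp1 Trove2, Zcchc2 and Rps6ka3 (r = 0.999 each); both members are among the long genes that were low in lung replicate 2.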

How the data were processed

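The values the authors deposited are estimated counts, 1 per transcript and sample. The submitters' processing notes list Salmon 1.4.0, FastQC 0.11.9, the build GRCm39 and DESeq2 1.32.0; what each was used for, the annotation release and any filter are not given in those sources. Names, lengths, exon structures and transcript sequences came from GENCODE M21 and promoter windows from RefSeq, both GRCm38, another build than the authors'. Of 76776 transcripts 76521 matched, and the other 255 held 0.107% to 0.416% of a sample's counts. Per the labels' protocols, a stranded mRNA kit was used, with a Nugen amplification also mentioned.

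Gene sums and transcripts were rounded and tested by the quasi-likelihood test (edgeR 4.0.16, R 4.3.3) with TMM scaling, the filter on low counts by group, group as the only term and Benjamini-Hochberg adjustment; the steps were tested on simulated data. SE is the log2 fold change divided by the root of F. Shares and ratios used two-sided exact permutation tests. Those of single Trp53 transcripts and of the ratios were adjusted within their family, and those of the Trp53 splice forms were not adjusted. The splitting of counts between near-identical transcripts is uncertain.

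The members and lists were chosen with earlier results of these data known. Named were the 6 genes, every Trp53 transcript, other transcripts with 10% or more of a gene's sum in the mean of either group, 9 fixed pathway genes, and per list the 4 called genes highest in mean CPM in the commoner direction plus the 2 largest changes in the other. Alternatives were DESeq2 1.42.0 and its size factors, limma-voom (limma 3.58.1), library size alone, other filters, each sample left out, and the replicate number as a block.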

Additional observations from a re-analysis of the deposited data

How the results depend on the processing

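Trp53 and Trp73 stayed higher in lung and called under all alternatives that tested them, Mdm2 was called under none and Mdm4 under 1. Library size alone shifted the median of all genes by 0.23 on the log2 scale. It gave 5210 of 15212 genes higher in lung and 1728 lower, with 3261 transcripts lower. The Trp53bp1 log2 fold change was -0.72 (edgeR adjusted p = 0.107). Under this scaling 2 regulators rose, and 2 and 2 genes of the 53BP1 pathway rose and fell. Requiring 10 or more counts in all samples gave 2555 of 11994 genes higher and 1701 lower, and 3403 transcripts higher and 2511 lower. Fewer genes were tested there. The Trp53bp1 value was -0.77 (edgeR adjusted p = 0.0824), 2 regulators rose and 2 genes of the 53BP1 pathway fell. With no filter on low counts, 5 targets and 8 genes of the 53BP1 pathway fell, and with the DESeq2 Wald test 6 and 10. Over all genes, 2985 of 20392 fell with no filter and 3217 of 15212 with the Wald test. An alternative chosen after seeing the data left out both cell line replicate 1 and lung replicate 2. It gave 6657 of 15404 genes higher and 5425 lower, and 10696 transcripts higher and 7742 lower. Beside these, 19 targets rose and 10 fell, and 2 regulators rose and 26 fell. In the 53BP1 pathway 3 genes rose and 13 fell, and the Mdm4 log2 fold change was 0.70.

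With 1 sample left out at a time, genes lower in lung numbered 1820 to 3773 and transcripts lower 2927 to 5317. The Trp53bp1 log2 fold change was -1.13 to -0.74, with the call lost without lung replicate 1 or any cell line replicate. Targets that fell numbered 2 to 6, regulators 10 to 20 and genes of the 53BP1 pathway 1 to 9. The target median was -0.11 to 0.34, and reversed to -0.11 without cell line replicate 2 and -0.07 without replicate 3.

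For Bbc3, at -0.62, the value turned to 0.18 when cell line replicate 1 was left out and to 0.026 with lung replicate 2 left out as well, and single samples left out gave -0.99 to 0.18. That of Trp53bp1-202, 0.00 with a negative sign, was 0.17 under DESeq2 size factors and under the Wald test, 0.37 with library size alone, 0.34 with 10 or more counts, 0.17 with the replicate block, 0.44 without lung replicate 2, 0.23 and 0.19 without cell line replicates 1 and 3 (range -0.47 to 0.44 with 1 sample left out), and 0.72 with both samples left out. The cause was not tested.

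Replicate numbers did not pair the samples: deviations from the group means correlated at -0.04, 0.08 and -0.08 for same-numbered samples, and not every sample correlated best with its own number. The replicate block gave 3002 transcripts higher and 1872 lower in lung and a difference in log2 Mdm2 to Trp53 ratio of -3.43. Under it the calls of Trp53-206 (adjusted p = 0.0571), Trp73-205 (0.0556), Mdm2-201 (0.0999), Mdm2-206 (0.0946) and Trp53bp1-216 (0.0725) were lost among the transcripts named, and Zmat3 was called (0.036), while Rnf8 (0.0702) and Brca1 (0.0782) were not. Depth limits Trp63 and the shares of Trp53 transcripts in the cell line.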
